A study of Homo sapiens with 4 samples.

Results

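The genes described here encode the initiation factors of cytosolic protein synthesis and the factors that end it. They are 41 genes named in advance by symbol, and each had exactly 1 of the 17064 rows of the deposited table, so all 41 were found. They comprise EIF1 and EIF1AX, 3 genes of eIF2, 5 of eIF2B, 13 of eIF3, 12 of the eIF4 group, 4 late factors (EIF5, EIF5A, EIF5B and EIF6) and the release factors ETF1 and GSPT1. By the labels the RNA was from cultures of KYSE-150, an established cell line that derives from a squamous carcinoma of the esophagus. Control cells had normal NSUN6, and the other cells carried a stable short hairpin RNA against NSUN6, an RNA methyltransferase that forms 5-methylcytosine. Both were treated with cycloheximide, which halts elongating ribosomes. A portion of every lysate served as input RNA, and polyribosome-bound RNA was collected from the rest by ultracentrifugation over sucrose, which gave 4 libraries, 1 per group. Values are FPKM, read fragments scaled for transcript length and for library size, so levels can be compared between genes per length. Where 4 FPKM values are given in a row, they stand for control input, control polyribosomes, knockdown-labelled input and knockdown-labelled polyribosomes, always in that order.

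Initiation starts when eIF2 with GTP brings the initiator tRNA to the small ribosomal subunit, where eIF1, eIF1A and the large eIF3 complex bind as well. The eIF4 factors recognise the cap of the mRNA, unwind its leader and join it to that subunit, and 4E-binding proteins block the cap-binding factor EIF4E when mTOR is inactive. EIF5 and EIF5B then trigger GTP hydrolysis and the joining of the large subunit, eIF2B recharges eIF2 with GTP, and at a stop codon ETF1 and GSPT1 release the finished protein. Dividing tumour cells depend on these factors, since initiation limits the rate of protein synthesis.

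The labels of 2 libraries are in doubt. Below its genes the table repeats column names, and there the control columns are ascribed to K150 with a hairpin named shGFP. The 2 knockdown columns are ascribed there to K30 with a hairpin against Mettl1. Their input column comes there before the polyribosome one, whereas the header has the reverse. The header was followed because its names are those of the sample descriptions. The pair is therefore called knockdown-labelled, and results that rest on it are also given with its 2 columns exchanged. NSUN6 was at 8.85, 10.13, 3.83 and 0.38 FPKM, and METTL1 at 13.02, 14.32, 5.98 and 8.32 FPKM. The 10 squamous markers summed to 1590, 2030, 971 and 1010 FPKM and moved both ways. KRT5, a basal keratin, was at 905.66, 1162.19, 0.45 and 0.70 FPKM, whereas KRT13, a suprabasal keratin, was at 1.56, 2.60, 302.57 and 391.53 FPKM and the transcription factor SOX2 at 0.31, 0.27, 39.54 and 8.28 FPKM. The 7 markers of simple or glandular epithelium summed to 3210, 4300, 6570 and 7230 FPKM. These sums were higher in both knockdown-labelled libraries than in either control library, but the markers moved both ways on polyribosomes. KRT19 was at 0.07, 1.02, 1487.69 and 1972.57 FPKM and AGR2 at 0.25, 0.15, 1093.26 and 316.03 FPKM. EPCAM, at 66.42, 76.63, 186.25 and 28.05 FPKM, and CDH1, at 21.30, 26.32, 47.72 and 11.15 FPKM, were lowest in the last library. KRT8 differed less, at 1503.32, 2120.33, 1941.21 and 2547.19 FPKM. Of markers of other cells, 6 of fibroblasts summed to at most 2.99 FPKM, with PDGFRA listed at 0 in 3 libraries, and 4 of endothelium to at most 0.78 FPKM. Of immune markers, CD68 was at 71.23, 69.33, 5.90 and 6.38 FPKM, LYZ, the lysozyme of myeloid cells, at 2.00, 1.47, 1.85 and 2.97 FPKM, and PTPRC, which all white blood cells carry, at 0.49, 0.24, 0.63 and 0.51 FPKM. The part of these markers in the results was not tested. With 1 library per group there was no replicate error to set a difference against, and no test was run. The identity of the cells and the hairpin cannot be told apart in these libraries, and the read depth is unknown.

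In control cells the factor messages were abundant. Their median was 107 FPKM in input and 109 FPKM on polyribosomes, against 21.3 and 21.5 FPKM for the 7379 genes whose FPKM averaged 5 or more across libraries. Of the 41 genes, 40 passed this limit. The exception was EIF4G3, a scaffold paralog of EIF4G1, with a mean of 1.79 FPKM. EIF5A, which helps ribosomes past difficult sequences and carries hypusine, was highest at 1924 FPKM in control input. It was followed by the RNA helicase EIF4A1 at 1211 FPKM and EIF1, the guardian of start codon choice, at 580 FPKM. Apart from EIF4G3 the lowest were EIF5B at 11.36 FPKM, EIF3A, the largest eIF3 subunit, at 11.43, the 4E-binding protein EIF4EBP2 at 12.94 and the cap-binding protein EIF4E at 13.50. Together the 41 genes made up 1.55%, 1.91%, 1.5% and 1.06% of all FPKM in the 4 libraries, in the order given above.

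**Figure D1:**
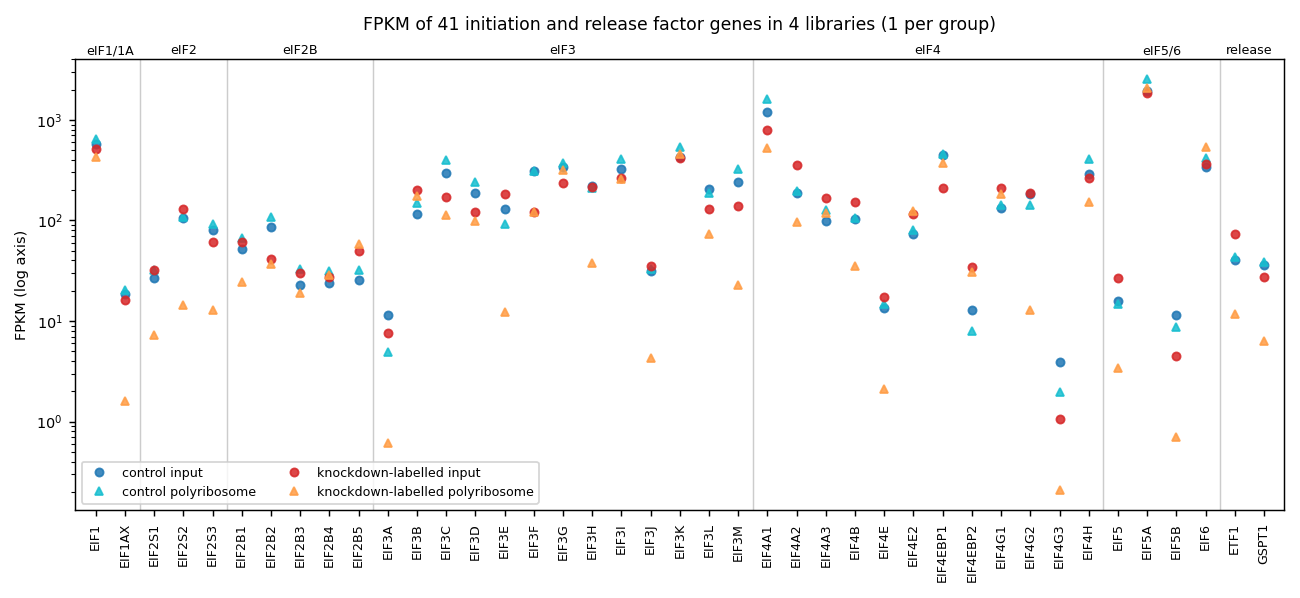
FPKM (log axis) of each of the 41 genes, arranged by role; circles are input and triangles polyribosome RNA, blue shades control and red or orange knockdown-labelled, with 1 library each and no error bars. The knockdown-labelled polyribosome library lies far below the other 3 for a subset of genes (EIF1AX, the 3 eIF2 genes, EIF3E, EIF3J, EIF3M, EIF4E, EIF4G2), while EIF5A, EIF3K and EIF6 stay close together in all 4.

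Subunits of a complex were not equally represented. Among the 13 eIF3 genes the highest, EIF3K, exceeded the lowest, EIF3A, by factors of 37.8, 108, 55.7 and 753 in the 4 libraries. The same 2 genes marked the ends in every library. The factor of 753 rests on EIF3A at 0.61 FPKM, with the read depth unknown. The 5 eIF2B genes were closer, with the highest over the lowest at 3.73, 3.43, 2.22 and 3.06 in the same order. The 3 eIF2 genes lay within a factor of 3.97, 3.38, 4.06 and 1.98. EIF3C is uncertain because of its near-identical copy EIF3CL, which was listed at 0 in all 4 libraries. EIF5A has the copy EIF5AL1, which was listed at between 5.59 and 13.46 FPKM.

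The first comparison set polyribosome RNA against input RNA in control cells. The measure, called efficiency below, is log2((polyribosome FPKM + 1)/(input FPKM + 1)), and values at least 2-fold apart were counted. Each library is scaled to its own size. Efficiency therefore places a message relative to other messages and is not the share of it on polyribosomes. Most factor messages stood slightly above their input level on control polyribosomes: 32 of 40 were above 0, and the median was 0.14 against 0.03 for all 7379 genes. Members at least 2-fold higher numbered 0, as did all genes (0.0%), and 1 member was at least 2-fold lower, against 0.759% of all genes. That member was EIF3A, at 11.43 FPKM in input and 4.97 FPKM on polyribosomes, an efficiency of -1.06. With 5 in place of 1 added to both values it no longer reached 2-fold.

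By role, all 5 eIF2B messages stood above their input level in control cells, between 0.32 for EIF2B5, the catalytic subunit, and 0.51 for EIF2B3. EIF4H and EIF4A1, a helicase cofactor and the helicase itself, were at 0.48 and 0.41, EIF3M at 0.43 and EIF5A at 0.40. Besides EIF3A the lowest were EIF4G3 at -0.74, EIF4EBP2 at -0.64, EIF3E at -0.48, EIF4G2 at -0.34 and EIF5B at -0.33. In the reference transcripts used (GENCODE 29), EIF4EBP2 has a 3′ untranslated region of 6874 bases and EIF4G3 a coding sequence of 4755 bases. Genes above 0 had longer ones: EIF4E (0.12) has a 3′ untranslated region of 9347 bases and EIF4G1 (0.09) a coding sequence of 4797 bases. Whether length has a part in these values was not tested. Across the 40 members Spearman's rho between transcript length and control efficiency was -0.34, and across 7336 genes it was -0.19; genes share libraries and are not independent replicates.

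The second comparison put polyribosome against input RNA in knockdown-labelled cells. Here the members separated widely. The median was -0.71, against -0.02 for all genes, and the values ran from -3.79 to 0.83. Of the 40 members, 18 were at least 2-fold lower on polyribosomes than in input and 0 were at least 2-fold higher, whereas 28.8% of all genes were lower and 8.62% higher. With the 2 columns exchanged each value changes sign by construction, so that 18 members would be higher and 0 lower. The direction of every result in this comparison therefore rests on the header.

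**Figure D2:**
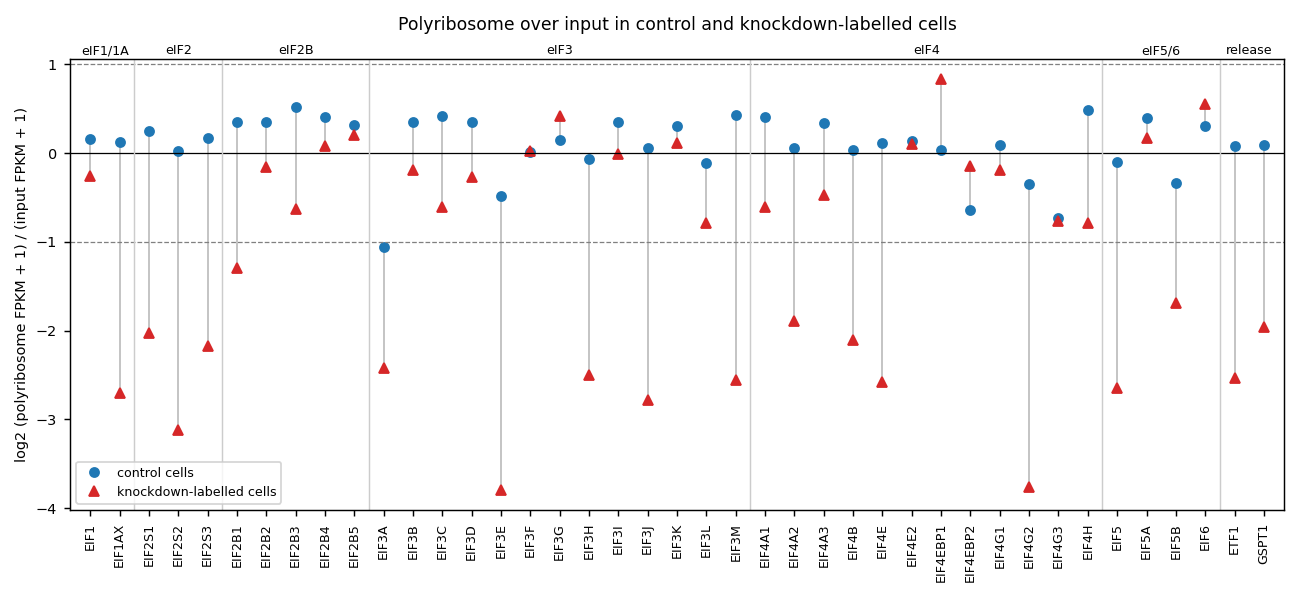
Efficiency, the log2 of polyribosome over input FPKM with 1 added to each, for each of the 41 genes in control cells (blue circles) and knockdown-labelled cells (red triangles), arranged by role; grey bars join the 2 values of a gene and dashed lines mark 2-fold. Control values lie between -1.06 and 0.51, and the 18 triangles below the lower dashed line include all eIF2 and release factor genes but 1 of the 5 eIF2B genes.

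All 3 eIF2 genes were among the 18. EIF2S1, the alpha subunit that stress kinases phosphorylate, was at 26.84, 32.05, 32.35 and 7.20 FPKM. EIF2S2, the beta subunit, was at 106.54, 108.41, 131.33 and 14.29 FPKM. EIF2S3, the gamma subunit, which holds GTP and the initiator tRNA, was at 81.29, 91.78, 61.69 and 12.92 FPKM. In each gene the 3 other libraries lay within a factor of 1.5 of one another and the knockdown-labelled polyribosome library lay far below them. Their efficiencies in knockdown-labelled cells were -2.02, -3.11 and -2.17.

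The exchange factor eIF2B had higher efficiencies than eIF2. EIF2B1, the regulatory alpha subunit, was the only one of the 5 past 2-fold, against 28.8% of all genes. It was at 52.14, 66.76, 60.76 and 24.22 FPKM and an efficiency of -1.29. EIF2B3 was at -0.63 and EIF2B2 at -0.16. EIF2B4 and the catalytic EIF2B5 were slightly above 0, at 0.08 and 0.20. The group medians were -0.16 for eIF2B and -2.17 for eIF2, and no eIF2B gene was as low as any eIF2 gene.

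The 13 eIF3 subunits fell into 2 sets of values within 1 complex. At least 2-fold lower on knockdown-labelled polyribosomes were 5 of the 13, against 28.8% of all genes. They were EIF3E at -3.79, EIF3J at -2.78, EIF3M at -2.56, EIF3H at -2.49 and EIF3A at -2.42. The other 8 lay between -0.79 for EIF3L and 0.42 for EIF3G, so that no subunit lay between -2.42 and -0.79. EIF3E was at 130.07, 92.72, 182.06 and 12.22 FPKM. EIF3M was at 242.96, 326.89, 139.42 and 22.83 FPKM, and EIF3J, a loosely bound subunit, at 31.48, 32.90, 35.28 and 4.30 FPKM. In these 3 genes the last library lay far below each other library. By contrast EIF3K was at 432.43, 535.97, 422.87 and 459.03 FPKM, EIF3I, a propeller-shaped subunit, at 321.91, 411.27, 262.26 and 259.92 FPKM, and EIF3F, which like EIF3H has an MPN domain, at 310.42, 312.77, 120.93 and 122.61 FPKM. EIF3F thus differed between cells but hardly between fractions.

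Paralogs within the eIF4 group parted in the same way. EIF4G2, a scaffold that lacks the EIF4E-binding region and starts translation at GUG, was at 181.72, 143.07, 186.16 and 12.82 FPKM, an efficiency of -3.76 in knockdown-labelled cells. EIF4G1, the main scaffold of the cap-binding complex, was at 133.45, 142.08, 210.91 and 184.85 FPKM and an efficiency of -0.19. EIF4E was at 13.50, 14.72, 17.45 and 2.10 FPKM (-2.57), whereas EIF4E2, which competes for the cap as a repressor, was at 73.85, 80.97, 115.42 and 123.73 FPKM (0.10). Each pair held a message that was scarce on knockdown-labelled polyribosomes and another that was not.

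The helicases showed a smaller separation. EIF4A2 was at 189.22, 197.08, 357.74 and 96.02 FPKM, an efficiency of -1.89, and EIF4A1 at 1211.08, 1606.96, 797.88 and 524.03 FPKM, an efficiency of -0.61. EIF4A3, which serves in the exon junction complex, was at -0.47. Of the cofactors that stimulate them, EIF4B was at 104.33, 106.97, 153.47 and 35.00 FPKM (-2.10) and EIF4H at -0.79. EIF4EBP1, the 4E-binding protein best known as an mTOR substrate, had the highest efficiency of all 41 genes, 0.83, with 447.52, 456.85, 208.88 and 372.48 FPKM. EIF4EBP2 was at 12.94, 7.92, 34.47 and 31.04 FPKM, higher in both knockdown-labelled libraries than in either control library.

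Among the late factors EIF5, the GTPase-activating protein of eIF2, was at 15.94, 14.77, 26.74 and 3.43 FPKM and an efficiency of -2.65. EIF5B, the GTPase of subunit joining, was at 11.36, 8.82, 4.5 and 0.71 FPKM and an efficiency of -1.69. EIF5A and EIF6 were at 0.18 and 0.55. EIF6, which keeps the large subunit from joining too early, was at 340.55, 422.62, 368.42 and 539.98 FPKM. Both release factors were low: ETF1, which reads the stop codon, at 40.90, 43.19, 73.46 and 11.88 FPKM (-2.53), and its GTPase partner GSPT1 at 35.84, 38.26, 27.41 and 6.29 FPKM (-1.96). EIF1AX was at 18.60, 20.45, 16.08 and 1.62 FPKM, an efficiency of -2.70, while EIF1, which binds the same subunit beside it, was at 579.83, 645.23, 510.43 and 425.83 FPKM, an efficiency of -0.26.

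The third comparison set knockdown-labelled against control input RNA. Factor messages differed little as a group. The median difference was 0.00 on the log2(FPKM + 1) scale, against 0.01 for all genes, with 20 members above 0 and 20 below. At least 2-fold higher was 1 of 40 members, against 13.2% of all genes, and at least 2-fold lower were 4, against 14.4%. The higher gene was EIF4EBP2 (1.35), and the lower ones were EIF3F (-1.35), EIF5B (-1.17), EIF4EBP1 (-1.10) and EIF2B2 (-1.02). EIF4G3, below the limit on FPKM, differed by -1.27. The 2 main 4E-binding proteins thus stood on opposite sides. EIF2B5 (0.96), EIF4A2 (0.92) and ETF1 (0.83) were the next highest. By role, 10 of 13 eIF3 genes were below 0 (median -0.52) and 8 of 12 eIF4 genes above 0 (median 0.45), while of all 7379 genes 3639 were below and 3738 above 0. With the knockdown-labelled columns exchanged, 22 members were at least 2-fold lower and 2 higher, with a median of -1.19, against 31.8% and 15.9% of all genes. The eIF4 genes then turned to 4 above and 8 below 0 (median -0.95), and 11 of 13 eIF3 genes were below 0 (median -1.38).

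The fourth comparison set knockdown-labelled against control polyribosome RNA. Here 25 of 40 members were at least 2-fold lower and 1 was higher, while 32.9% of all genes were lower and 16.7% higher. The median was -1.42, against -0.28 for all genes. With differences centred on that all-gene median, 23 members were lower and 2 higher, and of all genes 27.0% were lower and 22.8% higher. The lowest was EIF3M at -3.78, at 6.98% of its control level, followed by EIF4G2 at -3.38 (8.96%) and EIF1AX at -3.03 (7.92%). The highest was again EIF4EBP2, at 1.84 and 392% of control, then EIF2B5 at 0.84 and EIF4E2 at 0.61. Apart from these, EIF4G1 (0.38), EIF6 (0.35) and EIF3B (0.22) were above 0.

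All 3 eIF2 genes and both release factors were at least 2-fold lower in polyribosome RNA, against 32.9% of all genes. So were 9 of 13 eIF3, 7 of 12 eIF4, 2 of 5 eIF2B, 2 of 4 late factors and EIF1AX, with EIF4G3 (-1.29) counted among the eIF4 genes here. The shares of eIF2B and the late factors thus rest on few genes and lie nearer to that of all genes. The group medians were -2.74 for eIF2, -2.10 for the release factors, -1.34 for eIF3, -1.16 for eIF4, -1.06 for the late factors and -0.78 for eIF2B. With the columns exchanged the number of members at least 2-fold lower in polyribosome RNA was 6, against 14.0% of all genes, with 1 higher, against 12.7%, and the median was -0.17. The eIF2 median was then 0.01 and that of eIF3 -0.55. In bulk RNA, fewer cells of a kind and less RNA per cell cannot be told apart.

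**Figure D3:**
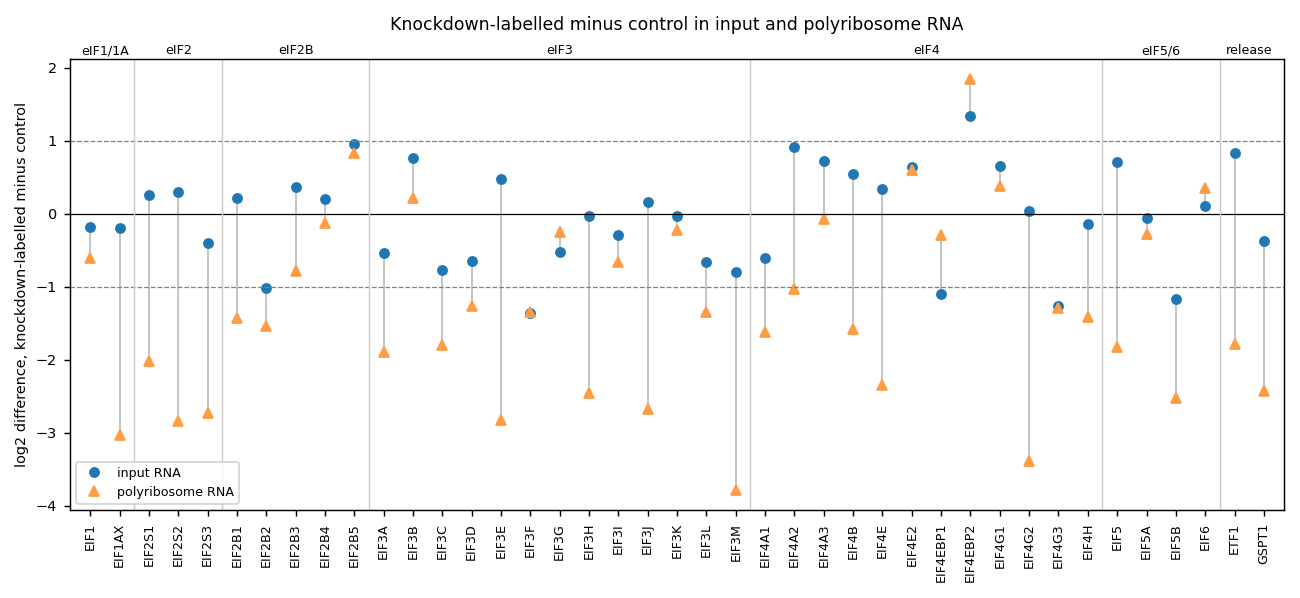
Log2 difference of FPKM + 1 between knockdown-labelled and control libraries for each of the 41 genes, in input RNA (blue circles) and polyribosome RNA (orange triangles), arranged by role; grey bars join the 2 values of a gene and dashed lines mark 2-fold. Circles lie between -1.35 and 1.35, while triangles reach -3.78 for EIF3M, and EIF4EBP2 is the only gene above the upper dashed line in both.

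The fifth comparison, the one the series was designed for, was the difference in efficiency between knockdown-labelled and control cells. Of 40 members, 22 were at least 2-fold lower and 0 higher, against 30.1% and 12.0% of all genes, and the median was -1.08 against -0.12. With each library rescaled to the same summed FPKM the all-gene shares were 35.6% and 7.91%, and 23 members were lower. The largest differences were those of EIF4G2 (-3.42), EIF3E (-3.31), EIF2S2 (-3.14), EIF3M (-2.99), EIF3J (-2.84) and EIF1AX (-2.83). Above 0 were 5 members, EIF4EBP1 (0.80), EIF4EBP2 (0.50), EIF3G (0.28), EIF6 (0.24) and EIF3F (0.01). In the header's order the 4E-binding proteins, which restrain initiation, were thus the 2 highest of the members, though neither reached 2-fold. They lay at percentiles 82.8 and 72.8 of all genes past the limit on FPKM. With the columns exchanged EIF4EBP1 was the lowest of the members at -0.86 and EIF4EBP2 was at 0.79. By role the medians were -2.34 for eIF2, -2.33 for the release factors, -1.62 for EIF1 and EIF1AX, -0.91 for eIF4, -0.79 for the late factors, -0.68 for eIF3 and -0.51 for eIF2B. With the columns exchanged 17 members were higher and 0 lower, against 27.8% and 6.29% of all genes, and the median was 0.55.

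In the authors' deposited table the efficiency ratio, which adds 5 to both FPKM, was below 1 for EIF4G2 in both, with 0.793 for control and 0.0932 for knockdown-labelled cells. In the authors' deposited table it was 0.723 and 0.0921 for EIF3E, and 1.02 and 1.76 for EIF4EBP1. The added 5 draws ratios of weak messages towards 1: for EIF5B the authors' deposited table gives 0.845 and 0.601, where the efficiencies above were -0.33 and -1.69 on the log2 scale.

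Ratios between partner genes differed most in 1 library for some pairs and between cells for others. EIF1 exceeded EIF1AX by factors of 31.2, 31.6 and 31.7 in the first 3 libraries, but of 263 on knockdown-labelled polyribosomes. The factor of 263 rests on EIF1AX at 1.62 FPKM, with the read depth unknown. EIF4E2 over EIF4E was 5.47, 5.50, 6.61 and 58.9 in the same order. EIF4G1 over EIF4G2 was 0.734, 0.993, 1.13 and 14.4, and EIF3B over EIF3E 0.897, 1.61, 1.09 and 14.2. In these 4 pairs the knockdown-labelled polyribosome library was the one that stood apart. Other pairs differed already in input. EIF4EBP1 over its target EIF4E was 33.1 and 31.0 in the control libraries, 12.0 in knockdown-labelled input and 177 in knockdown-labelled polyribosome RNA. EIF4A1 over EIF4A2 was 6.40 and 8.15 in control and 2.23 and 5.46 in knockdown-labelled libraries. Within eIF2B, EIF2B5 over EIF2B2 was 0.297 and 0.292 in control and 1.21 and 1.56 in knockdown-labelled libraries, so that their order was inverted in both fractions. With the columns exchanged the last 2 values of each ratio change places.

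**Figure D4:**
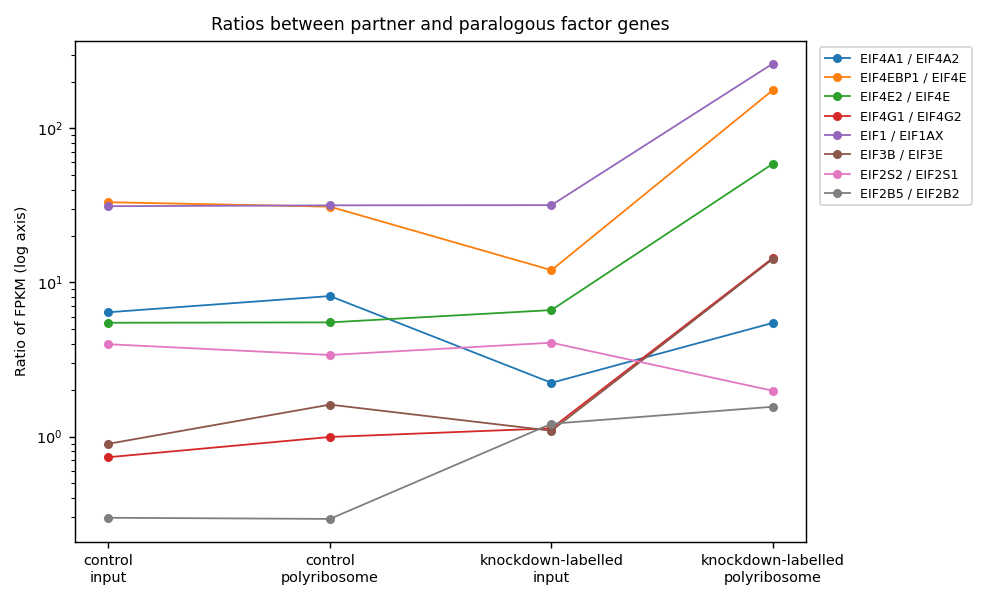
Ratio of FPKM (log axis) between 8 pairs of factor genes in each of the 4 libraries, 1 library per point with no error bars; lines only join the points of a pair. EIF1 over EIF1AX lies between 31.2 and 31.7 in 3 libraries and at 263 in knockdown-labelled polyribosome RNA, where EIF1AX is at 1.62 FPKM. By contrast EIF2B5 over EIF2B2 separates control from knockdown-labelled libraries.

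The members low on knockdown-labelled polyribosomes shared a low GC content, as did low genes at large. In the GENCODE 29 reference transcripts the coding sequences of the 41 genes ranged from 38.9% GC in EIF1AX to 64.4% in EIF4EBP1. All genes were divided by coding GC into 4 bins of 1834 genes. Of the 18 members in the lowest bin (up to 47.7%), 16 were at least 2-fold lower on knockdown-labelled polyribosomes than in input (88.9%, against 78.1% of all genes of the bin), and the exceptions were EIF1 (45.1% GC) and EIF2B3 (45.9% GC). Of the 15 members in the next bin (up to 54.9%) 2 were, EIF2B1 and EIF4B (13.3%, against 29.7%). In the upper 2 bins, with 6 members and 1, there were 0, against 5.62% and 2.02% of all genes. Spearman's rho between coding GC and knockdown-labelled efficiency was 0.85 across the 40 members and 0.77 across 7336 genes. In control cells it was 0.30 and -0.03. Exchanged columns turn the sign for knockdown-labelled cells. These are descriptions across genes that share the same libraries.

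The subunits of eIF3 and the paralogs of the eIF4 group parted in coding GC as they did in efficiency, but the order by GC was not that by efficiency in every complex. In eIF2B the lowest coding GC was that of EIF2B3 (45.9%, efficiency -0.63), whereas the lowest efficiency was that of EIF2B1 (48.9%, -1.29), and EIF2B5 (52.2%, 0.20) was above EIF2B2 (53.6%, -0.16) and EIF2B4 (54.0%, 0.08). All 3 eIF2 coding sequences had between 40.3% and 43.3% GC. The 5 low eIF3 genes lay between 39.8% (EIF3E) and 47.2% (EIF3A), and the other 8 between 48.7% (EIF3L) and 60.2% (EIF3G), so that the 2 sets of subunits did not overlap in coding GC either. EIF4G2 was at 44.5% and EIF4G1 at 56.2%, EIF4E at 42.7% and EIF4E2 at 50.2%, EIF4A2 at 43.1% and EIF4A1 at 50.4%. After a quadratic trend on transcript GC and length was removed across all genes, the members at least 2-fold lower in knockdown-labelled efficiency were 8, against 14.2% of all genes, those lower in polyribosome RNA 14, against 26.0%, and those lower in the efficiency difference 13, against 17.5%. With the trend taken on the coding sequence they were 9, against 15.2%, 15, against 25.2%, and 11, against 17.4%. Whether GC content has a part in these differences was not tested.

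**Figure D5:**
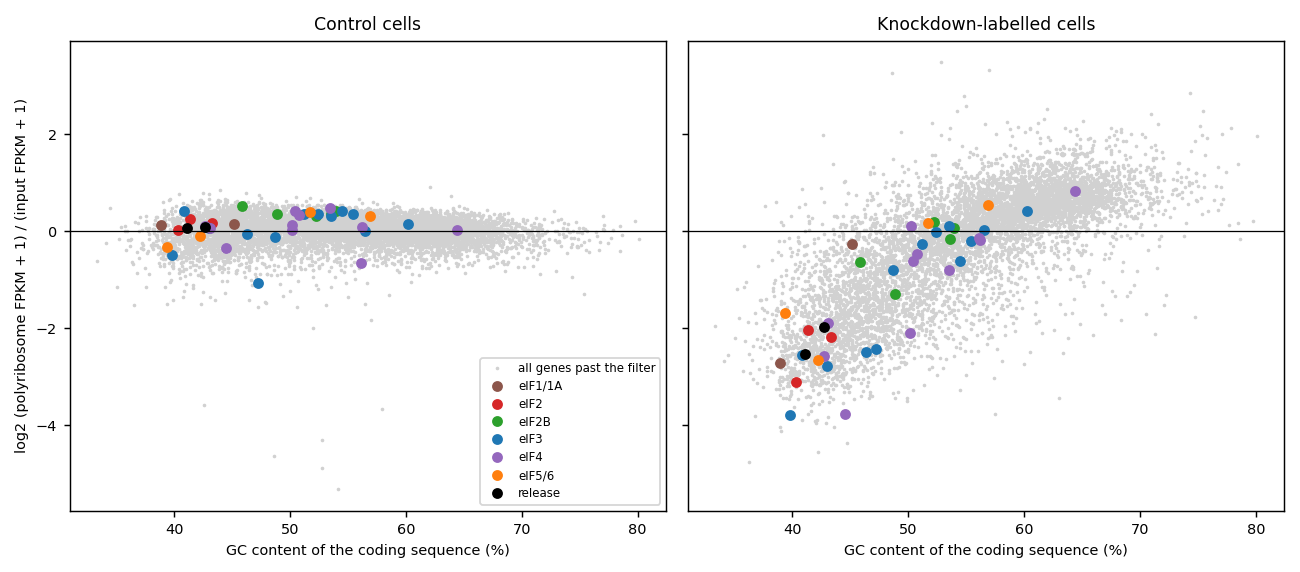
Efficiency, the log2 of polyribosome over input FPKM with 1 added to each, against GC content of the coding sequence (percent) for the 40 members past the limit on FPKM, coloured by role, over all 7336 genes with a reference transcript (grey), in control cells (left) and knockdown-labelled cells (right), 1 library per fraction. On the left the points form a flat band, and on the right they rise from about EIF3E (39.8% GC, -3.79) to EIF4EBP1 (64.4% GC, 0.83).

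The middle 90 bases of the coding sequence are shown for the 3 members lowest and the 3 highest in knockdown-labelled efficiency that could be printed. EIF3E, the lowest, and EIF4EBP1, the highest, are not among them. G and C are in capitals. The stretches are from GENCODE 29 transcripts on GRCh38, and positions count from the first base of the start codon. EIF4G2, chromosome 11, coding bases 1316 to 1405, has 47.8% GC here, against 44.5% over its whole coding sequence. The second value is given likewise below. EIF2S2, chromosome 20, coding bases 455 to 544, has 46.7% (40.3%). EIF3J, chromosome 15, coding bases 343 to 432, has 37.8% (43.0%). EIF2B5, chromosome 3, coding bases 1037 to 1126, has 54.4% (52.2%). EIF3G, chromosome 19, coding bases 436 to 525, has 58.9% (60.2%). EIF6, chromosome 20, coding bases 323 to 412, has 53.3% (56.9%). A stretch thus does not stand for its whole coding sequence.
EIF4G2: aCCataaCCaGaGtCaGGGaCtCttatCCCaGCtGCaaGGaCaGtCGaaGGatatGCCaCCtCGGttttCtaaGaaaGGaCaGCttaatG
EIF2S2: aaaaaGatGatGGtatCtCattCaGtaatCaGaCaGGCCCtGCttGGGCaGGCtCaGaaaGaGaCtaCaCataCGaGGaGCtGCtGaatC
EIF3J: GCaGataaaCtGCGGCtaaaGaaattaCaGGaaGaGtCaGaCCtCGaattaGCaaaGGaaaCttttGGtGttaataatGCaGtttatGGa
EIF2B5: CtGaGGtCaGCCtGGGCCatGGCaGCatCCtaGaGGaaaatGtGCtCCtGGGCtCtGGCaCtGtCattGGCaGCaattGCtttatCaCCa
EIF3G: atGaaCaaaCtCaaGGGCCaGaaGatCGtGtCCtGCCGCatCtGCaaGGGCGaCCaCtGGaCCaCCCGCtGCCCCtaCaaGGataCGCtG
EIF6: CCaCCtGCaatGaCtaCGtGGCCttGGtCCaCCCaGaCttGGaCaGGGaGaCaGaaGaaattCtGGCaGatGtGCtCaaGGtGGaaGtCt

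A further feature of these messages is the 5′ terminal oligopyrimidine start, a C followed by pyrimidines at the first base of the mRNA, through which mTOR controls the translation of ribosomal proteins and many other translation factors. RefSeq promoters on GRCh38.p14 were found for 34 of the 41 genes, that is, not for EIF2S2, EIF3A, EIF3E, EIF3G, EIF3H, EIF3L and EIF4EBP1. A C followed by at least 4 C or T bases stood at an annotated start of 7 of these 34 (20.6%), against 5.14% of 27305 genes in the promoter table and 8.46% of 5789 genes past the limit on FPKM. The 7 were EIF2S3, EIF3D, EIF3F, EIF3K, EIF3M, EIF4A2 and EIF4B. Each is shown from 10 bases before to 20 bases from the start on, on the strand of the gene, with the run of pyrimidines in capitals, and EIF4E and EIF3I, without such a run, are shown for comparison.
EIF2S3, chrX:24054946-24054975 (plus strand): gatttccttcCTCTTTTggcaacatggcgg
EIF3D, chr22:36529147-36529176 (minus strand): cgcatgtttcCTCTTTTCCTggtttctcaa
EIF3F, chr11:7987327-7987356 (plus strand): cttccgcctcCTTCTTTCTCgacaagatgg
EIF3K, chr19:38619178-38619207 (plus strand): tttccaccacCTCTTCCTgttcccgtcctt
EIF3M, chr11:32583821-32583850 (plus strand): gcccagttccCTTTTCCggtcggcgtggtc
EIF4A2, chr3:186783567-186783596 (plus strand): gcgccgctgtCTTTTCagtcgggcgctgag
EIF4B, chr12:53006446-53006475 (plus strand): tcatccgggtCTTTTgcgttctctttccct
EIF4E, chr4:98929114-98929143 (minus strand): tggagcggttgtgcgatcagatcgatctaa
EIF3I, chr1:32222397-32222426 (plus strand): ttccggtcttactcacgttgcggccttcct

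The 7 genes with this start did not move as a block. Their control efficiencies ranged from 0.01 to 0.43 and were all above 0. In knockdown-labelled cells EIF3M, EIF2S3, EIF4B and EIF4A2 were at -2.56, -2.17, -2.10 and -1.89, while EIF3D, EIF3F and EIF3K were at -0.27, 0.02 and 0.12. The median was -1.89, against -0.60 for 26 members without it and 0.09 for 490 genes with it past the limit on FPKM. In the header's order the members' median was thus below 0 and that of all such genes above 0. With the columns exchanged each knockdown-labelled efficiency changes sign by construction, and so do these medians. The 4 low genes had coding GC between 40.8% and 50.1%, and the 3 others between 51.2% and 56.5%. A match is a description of the annotated start and not of the start used in these cells.

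Other genes of translation were read from a list of 41 symbols, of which 31 passed the limit on FPKM. On knockdown-labelled polyribosomes 19 of 31 were at least 2-fold lower than in input and 1 was higher, against 28.8% and 8.62% of all genes. The lowest were METAP2, which removes the initiator methionine, at -3.96 and ABCE1, which recycles ribosomes, at -3.37. The highest were EIF5AL1 at 1.13 and PPP1R15A, which directs a phosphatase to eIF2, at 0.95. In control cells 1 of 31 was at least 2-fold lower, against 0.759% of all genes, the poly(A)-binding protein PABPC1, at 763.92 FPKM in input and 257.61 FPKM on polyribosomes, an efficiency of -1.56. In input RNA 2 were at least 2-fold higher and 3 lower in knockdown-labelled cells, against 13.2% and 14.4% of all genes, with a median of 0.08. In polyribosome RNA 2 were higher and 18 lower, against 16.7% and 32.9%, with a median of -1.34. With the columns exchanged 2 were higher and 19 lower in input, against 15.9% and 31.8%, and 5 were higher and 1 lower in polyribosome RNA, against 12.7% and 14.0%. On knockdown-labelled polyribosomes against input, 19 were then higher and 1 lower, against 28.8% and 8.62%. METAP2 (3.96) and ABCE1 (3.37) were then the highest there.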

How the data were processed

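RNA of 2 fractions from control and knockdown-labelled cells, all titled KYSE-150, was sequenced in 4 libraries, 1 per group, assigned by sample title. The repeated column names ascribe the knockdown-labelled pair to K30. The authors deposited FPKM per gene symbol. The submitters' processing notes name TopHat and the builds hg19 and GRCh37, while the counter, annotation and strand setting were not given in the sources used. A stranded mRNA kit was used, per the labels' protocols. Beside FPKM the authors deposited an efficiency ratio of polyribosome to input FPKM, and the values show 5 added to both (largest gap 5e-10). Rows with a number (26) or nothing (2) in place of a name entered counts only.

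Differences were taken on log2(FPKM + 1), which understates the change of weak genes. Genes averaging 5 FPKM or more were counted at 2-fold, in Python 3.11.15 with numpy 2.4.6, checked on simulated data. Depth is unknown, so no interval was computed. GC and lengths are from 1 GENCODE 29 transcript per gene, the principal coding isoform and the longest where several tie, matched by symbol for 41 of 41 members and 7336 of 7379 genes. Members, lists and comparisons were chosen with earlier results of these data known. All members could be named, and other genes only from fixed lists of pathway genes, markers and targeted genes. The 9 alternatives were another added constant (0.1 or 5), another limit (1 FPKM or none), rescaling, centring, exchanged columns and removal of a GC and length trend, for which the coding sequence was added after the data were seen. The summed level of the immune marker list is not reported here.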

Additional observations from a re-analysis of the deposited data

How the results depend on the processing

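The header's column order decided the most. With the 2 knockdown-labelled columns exchanged, counts were 18 higher and 0 lower in knockdown-labelled efficiency (median 0.71), 2 higher and 22 lower in input (median -1.19), 6 lower in polyribosome RNA (median -0.17), and 17 higher and 0 lower in the efficiency difference (median 0.55). Members at least 2-fold apart that changed sign were then, in knockdown-labelled efficiency, EIF1AX 2.70, EIF2S1 2.02, EIF2S2 3.11, EIF2S3 2.17, EIF2B1 1.29, EIF3A 2.42, EIF3E 3.79, EIF3H 2.49, EIF3J 2.78, EIF3M 2.56, EIF4A2 1.89, EIF4B 2.10, EIF4E 2.57, EIF4G2 3.76, EIF5 2.65, EIF5B 1.69, ETF1 2.53, GSPT1 1.96; in polyribosome RNA, EIF2S1 0.013, EIF2S2 0.27, EIF3A 0.52, EIF3E 0.97, EIF3H 0.035, EIF3J 0.10, EIF4A2 0.86, EIF4B 0.52, EIF4E 0.23, EIF4G2 0.38, EIF5 0.81, ETF1 0.75; and in the efficiency difference, EIF1AX 2.57, EIF2S1 1.78, EIF2S2 3.09, EIF2S3 2.00, EIF2B1 0.94, EIF2B3 0.12, EIF3A 3.47, EIF3C 0.19, EIF3E 4.28, EIF3H 2.56, EIF3J 2.71, EIF3M 2.13, EIF4A1 0.20, EIF4A2 1.83, EIF4B 2.07, EIF4E 2.46, EIF4G2 4.10, EIF4H 0.31, EIF5 2.75, EIF5B 2.02, ETF1 2.45, GSPT1 1.87.

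With the transcript GC and length trend removed, members at least 2-fold lower numbered 0 in control efficiency, 8 in knockdown-labelled efficiency (1 higher), 14 in polyribosome RNA (median -0.82, against 26.0% of all genes) and 13 in the efficiency difference (2 higher). EIF5B then had a knockdown-labelled efficiency of 0.26 and an efficiency difference of 0.41, and EIF3F (0.056) and EIF4A2 (0.18) changed sign in polyribosome RNA. With the coding trend, chosen after seeing the data, the numbers were 0, 9 (1 higher), 15 (2 higher, median -0.72, against 25.2% of all genes) and 11 (1 higher, median -0.48); EIF5B was at 1.27, 0.19 and 1.29 in knockdown-labelled efficiency, polyribosome RNA and the efficiency difference, EIF4A2 at 0.37 in polyribosome RNA and EIF2B3 at 0.0079 in the efficiency difference. The all-gene medians moved as well. With the coding trend removed, members and all genes had medians of -0.33 and -0.29 in knockdown-labelled efficiency. They were -0.72 and -0.36 in polyribosome RNA, and -0.48 and -0.37 in the efficiency difference. With the transcript trend removed the same pairs were -0.56 and -0.36, -0.82 and -0.37, and -0.81 and -0.40. The cause was not tested.

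With 5 added, 0 members were lower in control efficiency and 2 in input, against 0.407% and 10.3% of all genes. Rescaled libraries gave 2 lower and 3 higher in input, against 13.1% and 15.9% of all genes. Centring gave 2 higher in polyribosome RNA, against 22.8%. All other counts stayed within a factor of 1.5 and all other medians within 0.585. A constant of 0.1 moved 9 of 205 member values by more than that, 5 moved 20, and the other limits, rescaling and centring moved 0. No paired analysis was possible because each group has 1 library. With unknown depth, values near 1 FPKM, such as EIF3A and EIF5B on knockdown-labelled polyribosomes, are the least certain.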

Other observations

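Regulators of initiation that are not themselves factors differed among each other. Of the 4 kinases that phosphorylate EIF2S1, EIF2AK1, the heme-regulated kinase, was at 97.68, 94.68, 57.83 and 16.56 FPKM, in the order of libraries used above. EIF2AK2, which senses double-stranded RNA, was at 11.78, 11.29, 33.01 and 3.65 FPKM, and EIF2AK4, which senses uncharged tRNA, at 13.77, 12.29, 5.86 and 1.53 FPKM. EIF2AK3, the kinase of the endoplasmic reticulum, was below the limit on FPKM at 1.78, 1.41, 4.70 and 0.40. In the header's order EIF2AK2 and EIF2AK3 were above and EIF2AK1 and EIF2AK4 below control in input RNA, and all 4 were lowest in the last library. With the columns exchanged all 4 were below control in input RNA, by log2 differences of -2.49 for EIF2AK1, -1.46 for EIF2AK2, -0.99 for EIF2AK3 and -2.55 for EIF2AK4.

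The 2 proteins that bring a phosphatase to eIF2 lay on opposite sides of control in input RNA in the header's order only. PPP1R15A, the stress-induced one, was at 209.79, 180.80, 54.76 and 106.46 FPKM (an input difference of -1.92 on the log2 scale), and PPP1R15B, the constitutive one, at 6.30, 4.23, 24.40 and 4.19 FPKM (1.80). With the columns exchanged both were lower than control in input RNA, by -0.97 and -0.49. MKNK2, a kinase that phosphorylates EIF4E, was at 88.17, 82.49, 136.49 and 250.89 FPKM, and its relative MKNK1 at 13.95, 11.47, 28.04 and 29.69 FPKM, both higher in each knockdown-labelled library than in either control library. PDCD4, an inhibitor of EIF4A1, was at 7.75, 7.92, 13.67 and 1.18 FPKM. DHPS and DOHH, the 2 enzymes that form hypusine on EIF5A, had efficiencies of 0.62 and 0.59 in knockdown-labelled cells, against 0.18 for EIF5A itself, and all 3 values change sign with the columns exchanged.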
